A study of Mus musculus with 90 samples.

Results

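The samples described here are livers of mice without the glucocorticoid receptor (GR) in hepatocytes and of floxed controls without Cre, collected at zeitgeber time (ZT) 16 on the control diet. They were chosen by their titles, as the 3 GRLKO and 4 WT libraries of that diet and time, which makes 7 of the 90 libraries of the series and 7 of the 42 on the control diet. The series sequenced polyadenylated liver RNA of WT and GRLKO mice every 4 h around the day, on caloric restriction or on a control diet of chow. Mice on the control diet ate ad libitum until the final week, when feeding was restricted to the night. Food was offered from ZT12, when the lights went off, so ZT16 lies in the feeding phase. GRLKO mice were GRfl/fl x Alb-Cre, and the mice called WT were GRfl/fl without Cre, so both groups carried the floxed GR gene. All were male C57BL/6J mice aged 20 to 21 weeks. The Alb promoter drives Cre in hepatocytes, other liver cells keep the receptor, and each library is a whole-tissue mixture. Total estimated counts were 17089004, 16154317, 13699308 and 14097126 in WT replicates 1 to 4, and 14595267, 13407893 and 13029116 in GRLKO replicates 1 to 3.

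GR, encoded by Nr3c1, is a nuclear receptor that is held in the cytoplasm by chaperones until it binds glucocorticoid hormone, and then enters the nucleus and acts on genes near its binding sites. In the liver it is known for raising genes of glucose production and amino acid breakdown, for restraining inflammation and for carrying the daily rhythm of the hormone to hepatocytes. In mice, which are active at night, circulating corticosterone peaks near lights-off, so ZT16 follows that peak. The comparison asks which liver transcripts differ without hepatocyte GR at that time on the control diet. Levels are given below as CPM, counts brought to a common library size, after TMM scaling, which corrects for composition. A gene is called changed at an adjusted p under 0.05 in edgeR (quasi-likelihood test, Benjamini-Hochberg over all genes tested). Parentheses give the log2 fold change of GRLKO over WT ± its standard error (SE) and the adjusted p, then both without WT replicate 2 (WT2), for a reason that follows.

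Nr3c1 itself (chr18:39410545-39519421, minus strand, mm10) had 78.2, 91.1, 115 and 73.6 CPM in WT and 22.4, 25.5 and 28.1 in GRLKO. All 3 GRLKO libraries lay below all 4 WT libraries, as their labels say, and the difference was called (log2 fold change -1.82 ± 0.17, adjusted p = 0.00309, without WT2 -1.81, adjusted p = 0.0119). The counts cover the whole gene and the whole tissue, so what remained in GRLKO can come from other cells, from transcripts of the recombined allele or from both, which cannot be told apart. At the other 5 times of the control diet, on a scale common to all 42 libraries, Nr3c1 ranged from 73.0 to 99.3 CPM in WT and from 16.2 to 25.8 CPM in GRLKO. The genotypes did not overlap at any of the 6 times.

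WT replicate 2 held transcripts of the exocrine pancreas, the gland next to the liver that makes digestive enzymes. Of 42 exocrine markers 40 were in the table, and 34 of them had at least 1 count in WT replicate 2, against 5, 17 and 5 in WT replicates 1, 3 and 4 and 9, 7 and 4 in GRLKO replicates 1 to 3. Their summed level was 1039 CPM in WT replicate 2. In the other WT livers it was 1.53, 6.02 and 1.41 CPM, and in GRLKO livers 1.72, 2.64 and 2.37 CPM. The most abundant marker was pancreatic amylase Amy2a5, with 336 CPM (5396 counts) in WT replicate 2, 3.38 CPM in WT replicate 3, 0 in WT replicates 1 and 4, and 0.0661, 0.0776 and 0 CPM in GRLKO. Amylase genes are near-identical copies whose counts may be split among them. Carboxypeptidase Cpa1 had 45.4 CPM in WT replicate 2 and 0.0734 CPM in WT replicate 3, with 0 in the other 5 libraries. Elastase Cela3b, which also has a close copy, had 25.5 CPM in WT replicate 2 and 0 elsewhere. Prss1, Cela3a, Reg2, Gp2 and the acinar transcription factor Ptf1a were at 0 in all 7 libraries.

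In all, 16680 counts, or 0.103% of WT replicate 2, came from these markers. Among the 42 control-diet libraries the next highest shares were 0.000599% in WT replicate 3 at ZT16 and 0.000488% in WT replicate 2 at ZT12. Of the endocrine pancreas markers, Ins2 had 3 counts in WT replicate 2 and 1 in GRLKO replicate 1, and Ins1, Gcg and Sst had 0 in all 7 libraries. The same WT liver was also highest in erythrocyte markers, with a sum of 1499 CPM against 699, 662 and 418 CPM in the other WT livers and 667, 483 and 556 CPM in GRLKO. Smooth muscle and mesothelium markers summed to 20.1 CPM in it, against 7.31, 9.47 and 5.90 CPM in the other WT and 5.88, 3.10 and 4.58 CPM in GRLKO livers. Most of this sum was the smooth muscle genes Myh11 and Tagln, with 9.28 and 7.16 CPM in WT replicate 2. The mesothelium genes Msln, Wt1 and Upk3b had 0, 0.249 and 3.05 CPM there, and none was highest in that liver. Only 1 exocrine marker, the transcription factor Bhlha15, passed the filter on low counts, and it was not called (adjusted p = 0.551, and 0.492 without WT replicate 2). Across genes, which are not independent replicates, the median correlation of log2 CPM with the other WT libraries was 0.963 for WT replicate 2 and 0.965, 0.965 and 0.964 for WT replicates 1, 3 and 4.

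**Figure D1:**
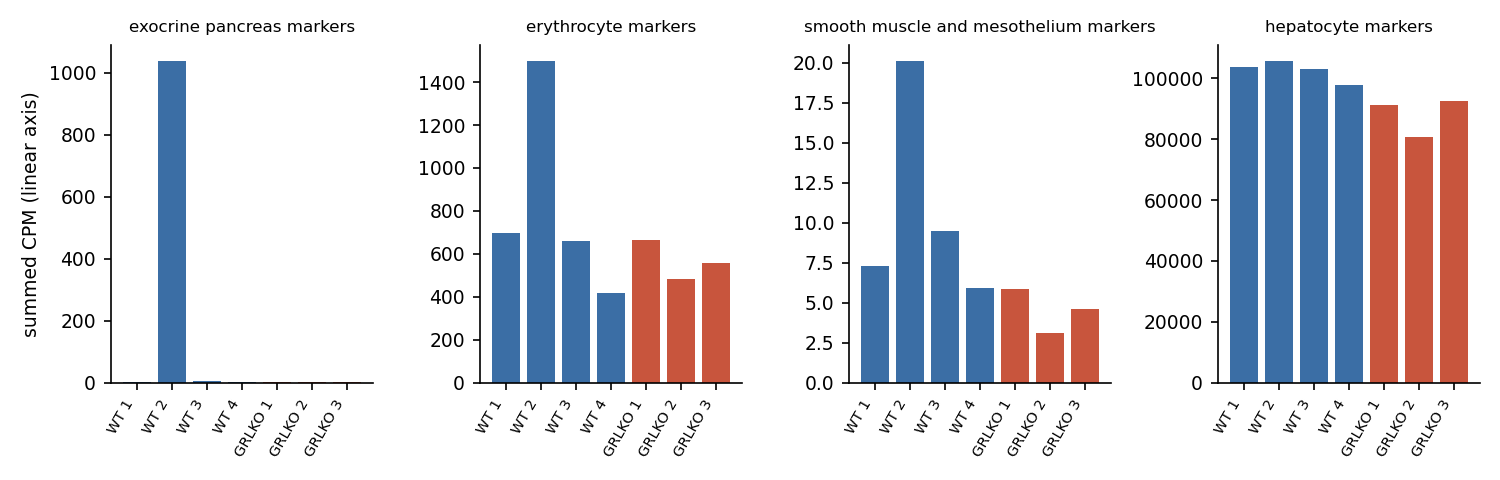
Summed CPM of marker genes of 4 cell types in each of the 7 livers (bars, linear axes from 0, WT blue and GRLKO red, 1 bar per library). WT replicate 2 holds 1039 CPM of exocrine pancreas markers while the other 6 libraries hold 1.41 to 6.02 CPM, and it is also highest for erythrocyte and smooth muscle markers.

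Of 11723 genes tested, 232 (1.98%) were called, 121 higher (1.03%) and 111 lower (0.947%) in GRLKO. At an unadjusted p under 0.05 there were 1950. Among the called genes 56 rose and 49 fell by at least 2-fold. For all 232 the WT and GRLKO libraries did not overlap, but this was so for 1991 (17%) of all genes tested, so separation alone says little. Without WT replicate 2, 93 of 11605 genes (0.801%) were called, 43 higher and 50 lower, with 1652 at an unadjusted p under 0.05. Of the 232 genes 86 were called again, 228 had the same direction and 4 no longer passed the filter. For the 228 the log2 fold change moved by a median of 0.03, and 187 of them had an adjusted p under 0.1 without that library. A further 7 genes were called only without WT replicate 2. Leaving out any other library also lowered the count, to between 84 and 183, and 50 genes were called in each of these fits and with all 7 libraries. With the 40 exocrine and 10 endocrine markers removed beforehand, 231 genes were called, 229 of them shared with the 232. Only 1 of these markers had been tested, so little could change. DESeq2 called 632, which include all 232.

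**Figure D2:**
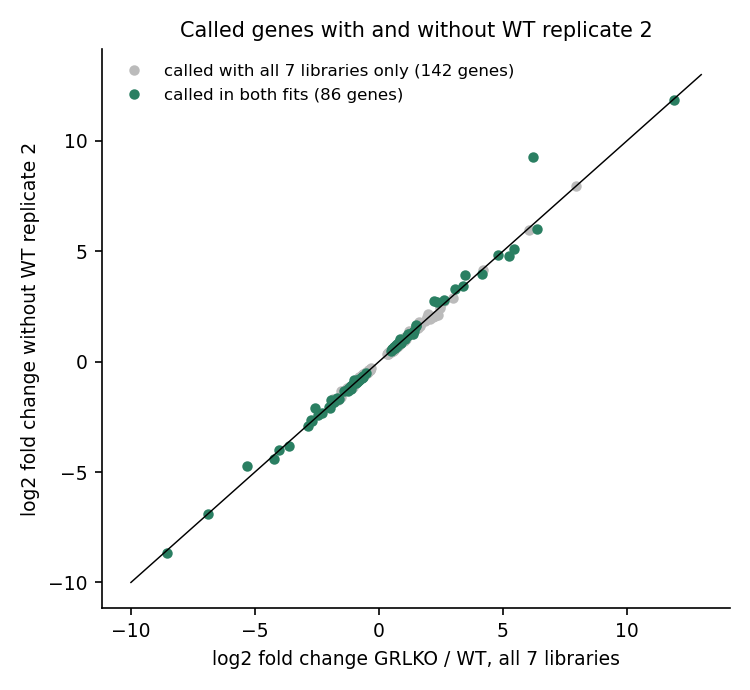
Log2 fold change of GRLKO over WT for the 228 called genes tested in both fits, with all 7 libraries (x axis) and without WT replicate 2 (y axis). Each point is a gene and the line marks equality. The 86 genes called in both fits and the 142 called only with all libraries lie along the line, apart from 1 gene without a symbol that has 4 counts in WT, all in replicate 2. Values over a group at 0 counts are fitted and not exact.

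The genes known to be raised by GR were the list with the largest share of calls. That list, like the others, was written with earlier results of these data known. Some of its members, among them Moxd1, Scara5 and Mfsd2a, are also among the 15 largest falls. Its share of calls is therefore a description and not independent evidence. Percentages given with each list below are the share of its tested genes that were called. They are to be read beside 1.98% of all genes (0.801% without WT replicate 2). Counts at an unadjusted p under 0.05 are to be read beside 1950 of all 11723 genes, or 1652 of 11605 without WT replicate 2. Counts called by DESeq2 are to be read beside 632 of the 12633 genes it tested. No list was tested as a set. Of 45 such targets 41 were tested, 12 were called lower and 1 higher (31.7%), and their median log2 fold change was -0.85 beside -0.0016 for all genes tested. Without WT replicate 2, 9 were called lower and none higher, with a median of -0.68 and 25 of the 41 at an unadjusted p under 0.05, and DESeq2 called 22 with all libraries. The count was 5 without GRLKO replicate 2 or 3 and 7 without GRLKO replicate 1.

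Fkbp5 (chr17:28399094-28517527, minus strand) encodes a co-chaperone that lowers the affinity of GR for its hormone and is a standard readout of GR activity. It had 51.3, 48.6, 52.6 and 51.8 CPM in WT and 12.2, 13.96 and 11.5 in GRLKO. The 4 WT livers were within a few CPM of each other and the GRLKO livers lay far below (log2 fold change -2.03 ± 0.08, adjusted p = 8.67e-05, without WT2 -2.05, adjusted p = 0.00081), the smallest adjusted p of the named genes. Tsc22d3, the glucocorticoid-induced leucine zipper that restrains inflammatory signalling, had 161, 139, 137 and 143 CPM in WT and 56.5, 63.5 and 65.7 in GRLKO (log2 fold change -1.23 ± 0.09, adjusted p = 0.00195, without WT2 -1.25, adjusted p = 0.00711). Angptl4, a secreted inhibitor of lipoprotein lipase, had 45.3, 45.2, 39.4 and 49.2 CPM in WT and 19.96, 21.3 and 20.3 in GRLKO (log2 fold change -1.13 ± 0.09, adjusted p = 0.00238, without WT2 -1.12, adjusted p = 0.0107). Per1, a clock gene that GR also acts on directly, had 26.8, 37.6, 37.4 and 31.3 CPM in WT and 11.2, 14.04 and 12.97 in GRLKO (log2 fold change -1.39 ± 0.15, adjusted p = 0.00587, without WT2 -1.32, adjusted p = 0.0175). In each of these genes every GRLKO liver was below every WT liver, and each stayed called whichever of the 7 libraries was left out.

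Mfsd2a, a transporter of lysophosphatidylcholine lipids, had 51.6, 46.3, 43.1 and 52.6 CPM in WT and 5.75, 11.6 and 5.26 in GRLKO, a fall that held in every fit with 1 library left out (log2 fold change -2.69 ± 0.26, adjusted p = 0.00378, without WT2 -2.71, adjusted p = 0.014). Scara5, a scavenger receptor that takes up ferritin, had 9.20, 7.97, 28.03 and 10.8 CPM in WT and 1.39, 0.776 and 1.14 in GRLKO (log2 fold change -3.64 ± 0.55, adjusted p = 0.0211, without WT2 -3.83, adjusted p = 0.0304). Zbtb16, a zinc finger transcription factor, had 13.4, 27.3, 7.27 and 12.5 CPM in WT and 2.64, 3.10 and 1.91 in GRLKO (log2 fold change -2.57 ± 0.46, adjusted p = 0.0356, without WT2 -2.11, adjusted p = 0.0324). WT replicate 3 was far above its group in Scara5 and WT replicate 2 in Zbtb16, yet no WT library reached the GRLKO level in either gene. Moxd1, of the copper monooxygenase family, had 17.03, 34.9, 10.2 and 8.64 CPM in WT and 0, 0.621 and 0.763 in GRLKO (log2 fold change -5.30 ± 0.81, adjusted p = 0.0212, without WT2 -4.73, adjusted p = 0.0334). Its WT values also spread widely, with replicate 2 highest, and GRLKO livers were near 0. Nfkbia, the inhibitor that holds NF-kB in the cytoplasm, had 26.1, 25.2, 23.7 and 22.6 CPM in WT and 16.7, 17.1 and 14.7 in GRLKO and was called only with WT replicate 2 (log2 fold change -0.59 ± 0.09, adjusted p = 0.0203, without WT2 -0.58, adjusted p = 0.0631). The only called target that rose was Gadd45g, a growth arrest and stress gene, with 2.89, 2.80, 7.78 and 3.09 CPM in WT and 20.1, 23.8 and 11.4 in GRLKO, and the rise was not called without WT replicate 2 (log2 fold change 2.17 ± 0.40, adjusted p = 0.0388, without WT2 2.02, adjusted p = 0.104).

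Not every textbook target was called. Tat, tyrosine aminotransferase, had 1992, 2678, 1392 and 2495 CPM in WT and 1881, 2258 and 1831 in GRLKO, and the groups overlapped (log2 fold change -0.10 ± 0.21, adjusted p = 0.852, without WT2 0.02, adjusted p = 0.974). Sgk1, a kinase of ion transport, had 13.4, 19.00, 10.3 and 13.4 CPM in WT and 8.66, 7.29 and 7.48 in GRLKO, without overlap but short of the threshold (log2 fold change -0.85 ± 0.20, adjusted p = 0.08, without WT2 -0.67, adjusted p = 0.112). Dusp1, a phosphatase that switches off MAP kinases, had 15.2, 29.5, 28.9 and 12.3 CPM in WT and 23.3, 14.4 and 15.9 in GRLKO (log2 fold change -0.26 ± 0.33, adjusted p = 0.741, without WT2 -0.07, adjusted p = 0.948). The spread among WT livers of Dusp1 covered all GRLKO values.

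**Figure D3:**
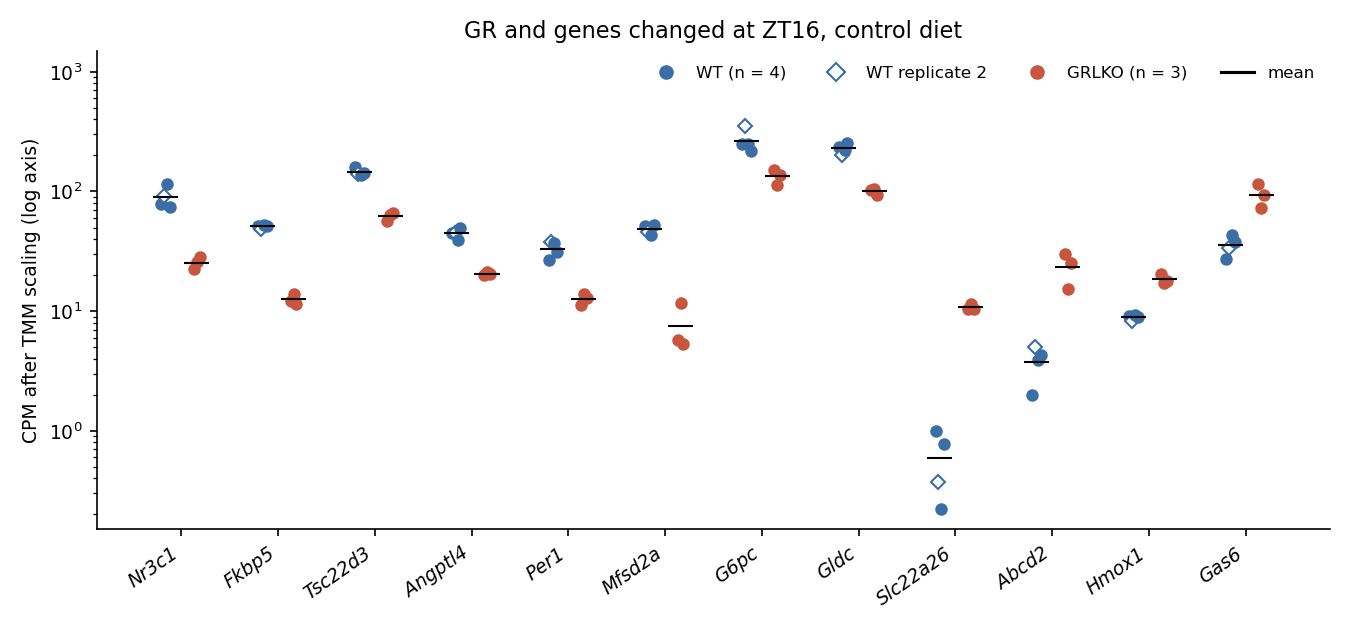
CPM after TMM scaling (log axis) of 12 genes in the 4 WT (blue, replicate 2 as an open diamond) and 3 GRLKO (red) livers, with each group's mean as a black line. Nr3c1 and 7 further genes lie lower and 4 lie higher in every GRLKO liver than in every WT liver, and WT replicate 2 lies within or next to the other WT livers.

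The largest fall among genes called with and without WT replicate 2 and at 5 CPM or more was that of E030018B13Rik (chr7:63916857-63920539, plus strand), a protein-coding gene of unassigned role. It had 6.19, 6.23, 10.5 and 4.15 CPM in WT and 0, 0.0776 and 0.0763 in GRLKO, which is 2 counts in all GRLKO livers together. The ratio of WT to GRLKO was 137, with a 95% counting interval of 37.8 to 1139, which covers counting error only, and the adjusted p was 0.00281 (0.011 without WT replicate 2). Eif4ebp3, a repressor of translation initiation, had 122, 52.3, 104 and 64.6 CPM in WT and 3.30, 5.74 and 4.81 in GRLKO (log2 fold change -4.22 ± 0.37, adjusted p = 0.00281, without WT2 -4.40, adjusted p = 0.00498). This gene lies at the end of a neighbouring gene with which it can be transcribed as a joint transcript, so its counts are less certain. Capn8, a calpain protease, had 6.96, 7.47, 4.77 and 5.69 CPM in WT and 0.727, 1.16 and 0.916 in GRLKO (log2 fold change -2.73 ± 0.26, adjusted p = 0.00338, without WT2 -2.63, adjusted p = 0.0119). Serpine2, an inhibitor of thrombin and other proteases, had 19.5, 29.96, 32.5 and 31.1 CPM in WT and 4.56, 5.04 and 5.72 in GRLKO (log2 fold change -2.47 ± 0.20, adjusted p = 0.00263, without WT2 -2.43, adjusted p = 0.0107). Ccnf, a cyclin that is part of a ubiquitin ligase, had 24.5, 23.98, 20.8 and 18.3 CPM in WT and 7.40, 7.99 and 5.04 in GRLKO (log2 fold change -1.68 ± 0.18, adjusted p = 0.00587, without WT2 -1.63, adjusted p = 0.0214). These 5 genes were called in every fit with 1 library left out, and in each the lowest WT liver was well above the highest GRLKO liver.

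Gstp2, a glutathione S-transferase, had 13.1, 18.6, 30.7 and 23.5 CPM in WT and 1.26, 3.10 and 4.50 in GRLKO, and as a close copy of Gstp1 it may share reads with it (log2 fold change -2.87 ± 0.43, adjusted p = 0.0198, without WT2 -2.94, adjusted p = 0.0476). Extl1, a glycosyltransferase of heparan sulfate synthesis, had 9.55, 8.16, 7.85 and 9.21 CPM in WT and 2.71, 1.55 and 0.992 in GRLKO (log2 fold change -2.29 ± 0.30, adjusted p = 0.0122, without WT2 -2.32, adjusted p = 0.0354). Both genes were lower in each GRLKO liver than in any WT liver, and the WT values of Gstp2 spread widely. Of the other falls of this size, Slc3a1 is described with the amino acid transporters, and Moxd1, Scara5, Mfsd2a, Zbtb16, Fkbp5 and Nr3c1 are given above.

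The largest rise was that of Hsd17b6 (chr10:127990936-128007611, minus strand), an enzyme that converts androgens and other steroids. It had 0 counts in all 4 WT livers and 16.2, 36.0 and 46.0 CPM in GRLKO, at least 647-fold higher against a floor of 3 counts over the WT group, with an adjusted p of 0.0094 (0.0214 without WT replicate 2). Its level was also 0 in 12 of the 18 WT livers at the other times and in 4 of the 17 GRLKO livers, while WT livers elsewhere reached 42.02 CPM. The gene was thus either at 0 or well above it within both genotypes, and the 4 WT livers at ZT16 were all at 0. A gene without a symbol, ENSMUSG00000073738, had 0, 0.249, 0 and 0 CPM in WT and 5.35, 5.28 and 5.72 in GRLKO (log2 fold change 6.21 ± 0.69, adjusted p = 0.00739, without WT2 adjusted p = 0.00711). Only 4 counts, all in replicate 2, stood for WT, so without that library WT is at 0 and no fold change is given. Tcf24, a basic helix-loop-helix transcription factor, had 0.177, 0, 0.294 and 0.703 CPM in WT and 9.72, 8.53 and 14.6 in GRLKO (log2 fold change 5.23 ± 0.59, adjusted p = 0.00739, without WT2 4.81, adjusted p = 0.011). Adamts15, a secreted metalloprotease, had 1.00, 0.747, 0.514 and 0.351 CPM in WT and 6.61, 4.96 and 9.46 in GRLKO (log2 fold change 3.38 ± 0.36, adjusted p = 0.00587, without WT2 3.45, adjusted p = 0.0214). In both genes WT livers at ZT16 were at or under 1 CPM and GRLKO livers at several CPM. Over all control-diet times the highest WT level was 5.56 CPM for Tcf24 and 1.995 CPM for Adamts15. At the other times Tcf24 was at 0 in 8 of 18 WT livers and in none of the 17 GRLKO livers.

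Abcd2, a peroxisomal transporter of very long-chain fatty acyl-CoA, had 2.004, 4.98, 3.89 and 4.29 CPM in WT and 29.7, 15.4 and 25.02 in GRLKO (log2 fold change 2.63 ± 0.31, adjusted p = 0.00849, without WT2 2.80, adjusted p = 0.0214). Osbpl3, an oxysterol-binding family protein, had 2.53, 4.36, 1.39 and 2.25 CPM in WT and 12.6, 16.4 and 11.1 in GRLKO (log2 fold change 2.33 ± 0.33, adjusted p = 0.0152, without WT2 2.68, adjusted p = 0.011). Slc10a2, the sodium-dependent bile acid transporter known from ileum and bile ducts, had 15.6, 25.8, 23.6 and 20.8 CPM in WT and 73.8, 46.00 and 61.4 in GRLKO (log2 fold change 1.49 ± 0.20, adjusted p = 0.0125, without WT2 1.60, adjusted p = 0.0267). Each GRLKO liver was above each WT liver in all 3. Gas6, the secreted ligand of the receptors Axl, Mertk and Tyro3, had 27.4, 33.6, 43.00 and 37.8 CPM in WT and 115, 72.6 and 94.2 in GRLKO (log2 fold change 1.41 ± 0.18, adjusted p = 0.0122, without WT2 1.39, adjusted p = 0.0421). Sucnr1, the receptor for extracellular succinate, had 39.2, 35.5, 25.98 and 28.5 CPM in WT and 76.8, 76.2 and 64.2 in GRLKO (log2 fold change 1.16 ± 0.15, adjusted p = 0.00988, without WT2 1.21, adjusted p = 0.0287). Abcd2, Gas6 and Sucnr1 stayed called whichever library was left out. Ccn1, a secreted matrix-associated protein, had 5.13, 8.10, 5.72 and 6.40 CPM in WT and 20.2, 20.6 and 13.2 in GRLKO (log2 fold change 1.51 ± 0.20, adjusted p = 0.0136, without WT2 1.65, adjusted p = 0.0214).

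Slc16a5, of the monocarboxylate transporter family, had 8.37, 8.91, 10.3 and 12.02 CPM in WT and 29.9, 19.2 and 28.1 in GRLKO (log2 fold change 1.38 ± 0.18, adjusted p = 0.0122, without WT2 1.33, adjusted p = 0.0414). Cd276, an immune checkpoint protein, had 4.83, 4.11, 7.78 and 6.47 CPM in WT and 14.5, 13.3 and 16.9 in GRLKO (log2 fold change 1.37 ± 0.21, adjusted p = 0.0228, without WT2 1.23, adjusted p = 0.0421). Rarres1, a retinoic acid-responsive gene, had 38.8, 45.4, 39.4 and 32.3 CPM in WT and 79.9, 116 and 67.4 in GRLKO (log2 fold change 1.17 ± 0.19, adjusted p = 0.0242, without WT2 1.25, adjusted p = 0.0485). The 3 genes were separated between the groups, although Cd276 was called in only 2 of the 7 fits with a library left out. Mup18, of the major urinary protein family of near-identical genes, had 508, 460.1, 328 and 477 CPM in WT and 1185, 978 and 954 in GRLKO (log2 fold change 1.23 ± 0.15, adjusted p = 0.00988, without WT2 1.25, adjusted p = 0.0354). Slc22a26, the remaining gene among the 15 largest rises, stands with the xenobiotic genes.

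Of 25 gluconeogenesis genes tested, 2 were called lower and none higher (8%), with a median log2 fold change of -0.00016, and the same 2 were called without WT replicate 2. DESeq2 called 5, and 7 had an unadjusted p under 0.05. The 2 genes are partners in the last step, the release of free glucose. G6pc, the catalytic subunit of glucose-6-phosphatase, had 248, 352, 247 and 219 CPM in WT and 152, 112 and 138 in GRLKO (log2 fold change -0.99 ± 0.18, adjusted p = 0.0359, without WT2 -0.82, adjusted p = 0.0376). Slc37a4, which carries glucose-6-phosphate to that enzyme, had 257, 214, 255 and 200.2 CPM in WT and 112, 119.9 and 145 in GRLKO (log2 fold change -0.88 ± 0.13, adjusted p = 0.017, without WT2 -0.92, adjusted p = 0.0398). Each GRLKO liver was below each WT liver, and WT replicate 2 was the highest of all in G6pc. Neither was called without GRLKO replicate 1 or 2. Pck1, the enzyme of an earlier step, had 964, 2286, 843 and 1585 CPM in WT and 574, 975 and 478 in GRLKO with overlap (log2 fold change -1.07 ± 0.39, adjusted p = 0.214, without WT2 -0.74, adjusted p = 0.369). Fbp1 had 1224, 1145, 1157 and 1149 CPM in WT and 1307, 1188 and 1336 in GRLKO and Pcx 56.1, 53.8, 51.1 and 46.9 CPM in WT and 75.8, 58.03 and 27.9 in GRLKO, also overlapping, with adjusted p of 0.413 and 0.949 (0.586 and 0.943 without WT replicate 2).

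Among 55 genes of amino acid catabolism and the urea cycle, all tested, 5 were called lower and none higher (9.09%), with 19 at an unadjusted p under 0.05, 12 called by DESeq2 and a median log2 fold change of -0.05. Only Gldc was called without WT replicate 2. Gldc, the glycine-cleaving decarboxylase, had 236, 203, 223 and 254 CPM in WT and 104, 106 and 92.7 in GRLKO, and its call held in every fit with 1 library left out (log2 fold change -1.19 ± 0.09, adjusted p = 0.00238, without WT2 -1.24, adjusted p = 0.00498). Asl, which forms arginine in the urea cycle, had 1001, 872, 966 and 970.0 CPM in WT and 570.2, 711 and 556 in GRLKO (log2 fold change -0.64 ± 0.10, adjusted p = 0.0269, without WT2 -0.68, adjusted p = 0.0552). In both genes the GRLKO livers lay below the WT livers without overlap. Bhmt, which methylates homocysteine, had 4480, 2676, 2382 and 3015 CPM in WT and 1671, 1363 and 1491 in GRLKO (log2 fold change -1.06 ± 0.21, adjusted p = 0.0496, without WT2 -1.13, adjusted p = 0.0901). Aass, of lysine breakdown, had 331, 316, 339 and 298 CPM in WT and 252, 243 and 243 in GRLKO (log2 fold change -0.38 ± 0.07, adjusted p = 0.0359, without WT2 -0.39, adjusted p = 0.0882). Cps1, the entry enzyme of the urea cycle, had 4659, 5547, 5500 and 4877 CPM in WT and 3358, 3610 and 4497 in GRLKO, again without overlap but not called (log2 fold change -0.43 ± 0.12, adjusted p = 0.121, without WT2 -0.39, adjusted p = 0.252). Tdo2, of tryptophan breakdown, had 1185, 1161, 907 and 1155 CPM in WT and 879, 987 and 922 in GRLKO with overlap (log2 fold change -0.25 ± 0.11, adjusted p = 0.299, without WT2 -0.22, adjusted p = 0.48).

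Of 18 amino acid transporter genes tested, 1 was called lower and none higher (5.56%), the same 1 without WT replicate 2, with 7 at an unadjusted p under 0.05, 6 called by DESeq2 and a median of -0.08. It was Slc3a1 (chr17:85028376-85064236, plus strand), the heavy chain of a transporter for cystine and dibasic amino acids, with 29.4, 39.4, 44.98 and 36.1 CPM in WT and 11.4, 7.60 and 11.2 in GRLKO (log2 fold change -1.89 ± 0.19, adjusted p = 0.00472, without WT2 -1.86, adjusted p = 0.0173). Every GRLKO liver was far below the lowest WT liver. Slc38a2, a transporter of small neutral amino acids, had 50.4, 82.3, 84.4 and 82.2 CPM in WT and 54.8, 39.3 and 40.5 in GRLKO (log2 fold change -0.73 ± 0.20, adjusted p = 0.12, without WT2 -0.68, adjusted p = 0.228). WT replicate 1 was low in Slc38a2 and lay among the GRLKO livers.

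Of 45 genes of glycolysis, glycogen and insulin response tested, only Irs2 was called, lower (2.22%, near the share of all genes), and none was called without WT replicate 2, where 8 had an unadjusted p under 0.05. DESeq2 called 6 with all libraries, and the median was -0.11. Irs2, an adaptor of the insulin receptor, had 8.37, 13.5, 11.5 and 12.2 CPM in WT and 6.15, 3.72 and 4.12 in GRLKO (log2 fold change -1.28 ± 0.23, adjusted p = 0.0348, without WT2 -1.19, adjusted p = 0.0897). Every GRLKO liver was below every WT liver. The liver glycogen synthase Gys2 had 299.8, 285, 307 and 303 CPM in WT and 268, 255 and 423 in GRLKO, and its groups overlapped (log2 fold change 0.08 ± 0.17, adjusted p = 0.863, without WT2 0.06, adjusted p = 0.925).

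Of 43 genes of fatty acid and triglyceride synthesis tested, 3 were called higher and none lower (6.98%), with a median of 0.20, 15 at an unadjusted p under 0.05 and 8 called by DESeq2. None was called without WT replicate 2, with 13 at an unadjusted p under 0.05. Pparg, a nuclear receptor of fat storage, had 7.90, 7.16, 5.65 and 3.09 CPM in WT and 30.5, 16.6 and 21.4 in GRLKO (log2 fold change 1.93 ± 0.31, adjusted p = 0.0254, without WT2 2.03, adjusted p = 0.0612). Plin2, a coat protein of lipid droplets, had 250.3, 219, 197 and 229 CPM in WT and 391, 333 and 299 in GRLKO (log2 fold change 0.61 ± 0.11, adjusted p = 0.0392, without WT2 0.60, adjusted p = 0.112). Fabp1, the liver fatty acid-binding protein, had 2866, 2870, 2592 and 2643 CPM in WT and 3891, 3830 and 3300 in GRLKO (log2 fold change 0.42 ± 0.08, adjusted p = 0.0475, without WT2 0.44, adjusted p = 0.114). All GRLKO livers were above all WT livers in the 3 genes. Fatty acid synthase Fasn had 728, 464, 526 and 457 CPM in WT and 904, 489.5 and 620.4 in GRLKO (log2 fold change 0.30 ± 0.23, adjusted p = 0.562, without WT2 0.24, adjusted p = 0.737). The desaturase Scd1 had 10740, 8784, 6398 and 7664 CPM in WT and 16371, 7346 and 7776 in GRLKO (log2 fold change 0.32 ± 0.30, adjusted p = 0.633, without WT2 0.34, adjusted p = 0.71). The groups overlapped in both enzymes.

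Of 32 cholesterol synthesis and uptake genes tested, edgeR called none (0%) with or without WT replicate 2, 5 had an unadjusted p under 0.05 in each fit, and DESeq2 called 3. Of 49 genes of fatty acid oxidation, ketogenesis and PPARalpha action tested, 2 were called higher and 1, Angptl4, lower (6.12%), and only Angptl4 without WT replicate 2. The median was 0.17, 17 had an unadjusted p under 0.05 and DESeq2 called 9. Bdh1, which interconverts the ketone bodies, had 173, 177, 139 and 155 CPM in WT and 283, 229.9 and 243 in GRLKO (log2 fold change 0.65 ± 0.11, adjusted p = 0.0301, without WT2 0.70, adjusted p = 0.0552). Acot3, a peroxisomal acyl-CoA thioesterase with close copies beside it, had 9.25, 7.97, 2.64 and 12.6 CPM in WT and 55.8, 27.7 and 50.05 in GRLKO (log2 fold change 2.45 ± 0.42, adjusted p = 0.0317, without WT2 2.44, adjusted p = 0.0939). Both were separated between the groups. Cpt1a, which admits fatty acids to mitochondria, had 290.2, 307, 247 and 243 CPM in WT and 301, 252 and 252 in GRLKO with overlap (log2 fold change -0.02 ± 0.11, adjusted p = 0.957, without WT2 0.05, adjusted p = 0.891). Of 31 bile acid genes tested only Nr0b2 was called, lower (3.23%), and none without WT replicate 2, where 10 had an unadjusted p under 0.05. DESeq2 called 8, and the median was -0.09. Nr0b2, the repressor SHP, had 33.1, 18.7, 25.7 and 20.6 CPM in WT and 11.8, 6.98 and 4.73 in GRLKO (log2 fold change -1.63 ± 0.32, adjusted p = 0.0456, without WT2 -1.74, adjusted p = 0.0749). Cyp7a1, the rate-limiting enzyme of bile acid synthesis, had 205, 224, 189 and 215 CPM in WT and 88.2, 163 and 274 in GRLKO, with the lowest and the highest value both in GRLKO (log2 fold change -0.25 ± 0.31, adjusted p = 0.74, without WT2 -0.21, adjusted p = 0.84).

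Xenobiotic metabolism had 11 called genes of 90 tested, 5 higher and 6 lower (12.2%), and 2 higher and 4 lower without WT replicate 2. Its median was 0.07, 34 had an unadjusted p under 0.05 and DESeq2 called 26. Sult1d1, a sulfotransferase, had 134, 113, 126 and 108 CPM in WT and 45.7, 53.5 and 49.97 in GRLKO (log2 fold change -1.27 ± 0.10, adjusted p = 0.00238, without WT2 -1.30, adjusted p = 0.00711). Fmo5, a flavin monooxygenase, had 1751, 1577, 1460 and 1699 CPM in WT and 828, 822 and 881 in GRLKO (log2 fold change -0.94 ± 0.08, adjusted p = 0.00281, without WT2 -0.96, adjusted p = 0.0119). Sult1a1, a phenol sulfotransferase, had 289, 259.7, 277 and 286 CPM in WT and 153, 151 and 185 in GRLKO (log2 fold change -0.77 ± 0.09, adjusted p = 0.00849, without WT2 -0.80, adjusted p = 0.0214). The 3 genes were called in every fit with 1 library left out, with tight groups. Por, which passes electrons to all microsomal cytochromes P450, had 384, 409.7, 406 and 369 CPM in WT and 288, 308 and 282 in GRLKO and was not called without WT replicate 2 (log2 fold change -0.42 ± 0.07, adjusted p = 0.0295, without WT2 -0.40, adjusted p = 0.0793). Slc22a26 (chr19:7781041-7802667, minus strand), an organic anion transporter family member with close relatives beside it, had 1.00, 0.374, 0.220 and 0.773 CPM in WT and 10.5, 11.6 and 10.4 in GRLKO (log2 fold change 4.15 ± 0.37, adjusted p = 0.00281, without WT2 3.97, adjusted p = 0.011). WT livers were at or under 1 CPM and GRLKO livers near each other. Cyp3a11, a major drug-metabolizing P450, had 5458, 5211, 2964 and 5511 CPM in WT and 5573, 3680 and 4054 in GRLKO with overlap (log2 fold change -0.11 ± 0.23, adjusted p = 0.862, without WT2 -0.07, adjusted p = 0.935).

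Of 48 tested genes of the growth hormone axis and of sex-biased expression, 5 were called higher and 2 lower (14.6%), with a median of -0.03, 19 at an unadjusted p under 0.05 and 16 called by DESeq2. The 2 falls and none of the rises were called without WT replicate 2, with 19 at an unadjusted p under 0.05. Cyp2a4, a P450 higher in females and nearly identical to Cyp2a5, had 0.707, 0.810, 0.587 and 1.05 CPM in WT and 19.6, 447 and 127 in GRLKO (log2 fold change 7.95 ± 1.11, adjusted p = 0.0152, without WT2 7.97, adjusted p = 0.0588). Cyp2b9, also higher in females, had 0.295, 0.125, 0 and 0.211 CPM in WT and 11.2, 2.72 and 20.3 in GRLKO (log2 fold change 6.06 ± 0.82, adjusted p = 0.0136, without WT2 5.94, adjusted p = 0.0532). WT livers were at or under 1.05 CPM in both, and the GRLKO livers differed widely among themselves, in a different order for each gene. Mup20, a male-biased major urinary protein whose counts may be split with its copies, had 7238, 8445, 9974 and 9621 CPM in WT and 4483, 3567 and 3527 in GRLKO (log2 fold change -1.19 ± 0.14, adjusted p = 0.00794, without WT2 -1.21, adjusted p = 0.0258). Mup18 of the same family, given above and not counted in this list, was called higher, so members of the family went in opposite directions. Cyp17a1, a steroid 17-hydroxylase, had 3.42, 3.18, 6.60 and 4.36 CPM in WT and 1.26, 0.853 and 1.22 in GRLKO (log2 fold change -1.97 ± 0.33, adjusted p = 0.0295, without WT2 -2.09, adjusted p = 0.0428). Both falls separated the groups, and that of Mup20 held in every fit with 1 library left out. Socs3, an inhibitor of cytokine receptor signalling, had 3.89, 4.48, 6.09 and 3.65 CPM in WT and 12.2, 13.8 and 9.77 in GRLKO (log2 fold change 1.40 ± 0.20, adjusted p = 0.0173, without WT2 1.40, adjusted p = 0.0557). Prlr, the prolactin receptor, had 53.9, 62.4, 67.7 and 77.4 CPM in WT and 99.5, 94.4 and 114 in GRLKO (log2 fold change 0.65 ± 0.12, adjusted p = 0.0425, without WT2 0.63, adjusted p = 0.117). Igf1, the main secreted product of growth hormone action, had 454, 589.7, 731 and 600.1 CPM in WT and 576, 631 and 555 in GRLKO, overlapping between the groups (log2 fold change -0.02 ± 0.15, adjusted p = 0.978, without WT2 -0.02, adjusted p = 0.975).

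Of 29 clock and clock output genes tested, 3 were called lower and 1 higher (13.8%), with a median of -0.14, 8 at an unadjusted p under 0.05 and 7 called by DESeq2. Per1 lower and Per3 higher were the calls without WT replicate 2. Per3, a period gene, had 35.6, 40.7, 36.8 and 35.7 CPM in WT and 52.9, 59.6 and 50.5 in GRLKO (log2 fold change 0.55 ± 0.08, adjusted p = 0.0197, without WT2 0.59, adjusted p = 0.0324). Cry1, a repressor of the clock, had 31.3, 34.1, 29.2 and 33.03 CPM in WT and 23.2, 21.5 and 18.7 in GRLKO (log2 fold change -0.59 ± 0.10, adjusted p = 0.026, without WT2 -0.56, adjusted p = 0.0744). Usp2, a deubiquitinase with a daily rhythm, had 43.7, 41.98, 38.8 and 39.6 CPM in WT and 24.8, 30.6 and 30.9 in GRLKO (log2 fold change -0.51 ± 0.09, adjusted p = 0.0384, without WT2 -0.50, adjusted p = 0.109). Each of the 3 separated the groups. The core activator Arntl had 10.4, 12.1, 12.3 and 10.6 CPM in WT and 9.12, 5.20 and 7.55 in GRLKO (log2 fold change -0.64 ± 0.18, adjusted p = 0.135, without WT2 -0.60, adjusted p = 0.256). Dbp, an output transcription factor, had 8.08, 12.3, 8.07 and 8.22 CPM in WT and 17.2, 31.03 and 14.1 in GRLKO (log2 fold change 1.177 ± 0.28, adjusted p = 0.0813, without WT2 1.35, adjusted p = 0.101). Neither was called although the groups did not overlap, while Nr1d1, a repressor of Arntl, overlapped with 7.31, 11.8, 9.03 and 8.29 CPM in WT and 6.81, 14.7 and 9.38 in GRLKO (log2 fold change 0.17 ± 0.27, adjusted p = 0.802, without WT2 0.32, adjusted p = 0.653).

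Of 78 acute phase, complement and coagulation genes tested, 4 were called lower and 1 higher (6.41%), with a median of -0.05, 26 at an unadjusted p under 0.05 and 11 called by DESeq2. Without WT replicate 2, Saa4 and Lbp were called lower and none higher, with 19 at an unadjusted p under 0.05. Saa4, the constitutive serum amyloid A, had 448, 493, 532 and 501 CPM in WT and 238, 318 and 287 in GRLKO (log2 fold change -0.81 ± 0.11, adjusted p = 0.014, without WT2 -0.81, adjusted p = 0.0423). Lbp, which binds bacterial lipopolysaccharide, had 44.9, 37.8, 41.8 and 47.3 CPM in WT and 27.03, 28.8 and 27.3 in GRLKO (log2 fold change -0.63 ± 0.09, adjusted p = 0.0152, without WT2 -0.69, adjusted p = 0.0175). Il6ra, the interleukin 6 receptor, had 18.5, 22.98, 9.03 and 17.6 CPM in WT and 6.21, 5.43 and 6.26 in GRLKO (log2 fold change -1.51 ± 0.29, adjusted p = 0.0425, without WT2 -1.34, adjusted p = 0.0937). The 3 genes were lower in every GRLKO liver. Serpina3k, a secreted protease inhibitor in a family of close copies, had 9822, 12496, 13282 and 10318 CPM in WT and 5232, 7952 and 5851 in GRLKO (log2 fold change -0.86 ± 0.17, adjusted p = 0.0466, without WT2 -0.81, adjusted p = 0.127). Mbl2, a lectin that starts complement, had 250.0, 226, 240.1 and 243 CPM in WT and 347, 319 and 316 in GRLKO (log2 fold change 0.45 ± 0.07, adjusted p = 0.0211, without WT2 0.42, adjusted p = 0.062). C3, the central complement protein, had 5492, 6054, 6255 and 5902 CPM in WT and 6115, 5191 and 6512 in GRLKO with overlap (log2 fold change 0.0033 ± 0.09, adjusted p = 0.994, without WT2 0.01, adjusted p = 0.969).

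In metal handling 29 genes were tested, with Hmox1 called higher and Scara5 lower (6.9%) with and without WT replicate 2, a median of -0.05, 12 at an unadjusted p under 0.05 and 7 called by DESeq2. Hmox1, which opens the heme ring, had 9.20, 8.28, 9.25 and 8.93 CPM in WT and 20.3, 17.3 and 17.9 in GRLKO, tight in both groups and called in every fit with 1 library left out (log2 fold change 1.05 ± 0.09, adjusted p = 0.00281, without WT2 1.02, adjusted p = 0.0119). Metallothionein Mt1, which binds zinc and copper, had 3.77, 5.92, 3.96 and 3.51 CPM in WT and 1.92, 2.17 and 1.07 in GRLKO, without overlap but not called (log2 fold change -1.32 ± 0.30, adjusted p = 0.0771, without WT2 -1.12, adjusted p = 0.161). Of 44 genes of growth arrest, cell cycle and immediate early response tested, Gadd45g and Btg2 were called higher and Rrm2 lower (6.82%), and none without WT replicate 2, where 14 had an unadjusted p under 0.05. DESeq2 called 8, and the median was 0.13. Btg2, an antiproliferative gene, had 6.96, 10.1, 9.32 and 9.91 CPM in WT and 17.8, 17.5 and 13.8 in GRLKO (log2 fold change 0.85 ± 0.15, adjusted p = 0.0374, without WT2 0.91, adjusted p = 0.0734). Rrm2, a subunit of ribonucleotide reductase, had 7.25, 9.34, 3.89 and 6.75 CPM in WT and 2.18, 1.71 and 1.68 in GRLKO (log2 fold change -1.87 ± 0.31, adjusted p = 0.0278, without WT2 -1.68, adjusted p = 0.062). The groups did not overlap in either.

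Of 27 hepatokines and secreted regulators tested, Inhbe was called higher and Angptl4 and Fgf1 lower (11.1%), with a median of 0.0054, 8 at an unadjusted p under 0.05 and 5 called by DESeq2, and the calls of Inhbe and Angptl4 held without WT replicate 2. Inhbe, an activin subunit, had 47.7, 56.1, 42.6 and 49.7 CPM in WT and 69.5, 75.6 and 90.03 in GRLKO (log2 fold change 0.68 ± 0.12, adjusted p = 0.0317, without WT2 0.75, adjusted p = 0.0421). Fgf1, a fibroblast growth factor, had 134, 137, 142 and 145 CPM in WT and 115, 97.3 and 108 in GRLKO (log2 fold change -0.39 ± 0.07, adjusted p = 0.0425, without WT2 -0.40, adjusted p = 0.1). Igfbp1, an IGF-binding protein that insulin lowers, had 10.4, 6.79, 17.1 and 8.36 CPM in WT and 3.70, 0.465 and 0.458 in GRLKO, without overlap but with a wide spread and no call (log2 fold change -2.74 ± 0.69, adjusted p = 0.0966, without WT2 -2.90, adjusted p = 0.148). In the 53 nuclear receptors and liver transcription factors tested, 4 were called lower, among them Nr3c1, Zbtb16 and Nr0b2, and Pparg was called higher (9.43%). The calls without WT replicate 2 were 3 lower and none higher. With all libraries the median was -0.02, 15 had an unadjusted p under 0.05 and DESeq2 called 11. Ppara, the receptor of the fasting response, had 98.2, 118, 71.7 and 82.1 CPM in WT and 94.2, 81.8 and 103 in GRLKO (log2 fold change 0.01 ± 0.17, adjusted p = 0.991, without WT2 0.15, adjusted p = 0.689). Hnf4a, a factor that maintains hepatocyte identity, had 583, 572, 706 and 633 CPM in WT and 474, 551 and 603 in GRLKO (log2 fold change -0.20 ± 0.11, adjusted p = 0.408, without WT2 -0.24, adjusted p = 0.425). Both overlapped between the groups.

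In the 18 tested genes of GR and steroid handling, only Nr3c1 was called (5.56%), with and without WT replicate 2, with a median of 0.04, 7 at an unadjusted p under 0.05 and 4 called by DESeq2. Hsd11b1, which regenerates active corticosterone inside hepatocytes, had 528, 452, 454 and 461 CPM in WT and 400.2, 434 and 421 in GRLKO, without overlap but not called (log2 fold change -0.18 ± 0.08, adjusted p = 0.308, without WT2 -0.20, adjusted p = 0.376). Nr3c2, the mineralocorticoid receptor that also binds corticosterone, had 6.96, 13.1, 8.07 and 12.7 CPM in WT and 11.8, 9.08 and 13.96 in GRLKO with overlap (log2 fold change 0.19 ± 0.25, adjusted p = 0.762, without WT2 0.33, adjusted p = 0.621). Of 35 interferon-stimulated genes tested only Usp18 was called, higher (2.86%, near the share of all genes), and none without WT replicate 2, where 6 had an unadjusted p under 0.05. DESeq2 called 3, and the median was 0.16. Usp18, which removes ISG15 from proteins, had 2.59, 3.24, 3.30 and 3.80 CPM in WT and 5.95, 6.59 and 8.93 in GRLKO (log2 fold change 1.15 ± 0.20, adjusted p = 0.0336, without WT2 1.15, adjusted p = 0.0937). Of 40 genes of the unfolded protein response and heat shock only Pdia4 was called, higher (2.5%, also near it), and none without WT replicate 2, where 10 had an unadjusted p under 0.05. DESeq2 called 9, and the median was 0.12. Pdia4, a disulfide isomerase of the endoplasmic reticulum, had 237, 190.3, 239.6 and 245 CPM in WT and 307, 355 and 372 in GRLKO (log2 fold change 0.60 ± 0.11, adjusted p = 0.0379, without WT2 0.52, adjusted p = 0.0631). Usp18 and Pdia4 were higher in every GRLKO liver, and WT replicate 2 was the lowest WT liver for Pdia4.

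Markers of other cell types were read beside these results. In whole tissue, fewer cells of a type, less RNA per cell and a change of single marker genes cannot be told apart. The part of these markers in the results above was not tested. The 10 hepatocyte markers, all detected in every library, summed to 103564, 105739, 103194 and 97663 CPM in WT and to 91236, 80760 and 92705 CPM in GRLKO. The 9 liver endothelial markers summed to 191, 189, 176 and 180 CPM in WT and to 174, 144 and 172 CPM in GRLKO. Both sums were lower in every GRLKO liver. An exact two-sided permutation test over the 35 arrangements of the libraries gave p = 0.0286 for each, which is the smallest it can give, and 0.267 after Benjamini-Hochberg adjustment over the 28 library measures. Without WT replicate 2 both gave 0.1, the smallest of 3 against 3. None of the 10 hepatocyte markers was called by edgeR, with 3 at an unadjusted p under 0.05 and 2 called by DESeq2. Their log2 fold changes ranged from -0.63 (Apoa1) to 0.04 (Ttr), with a median of -0.20. The most abundant, albumin, had 65537, 68923, 65288 and 61613 CPM in WT and 60773, 48791 and 61299 in GRLKO (log2 fold change -0.20 ± 0.09, adjusted p = 0.327, without WT2 -0.17, adjusted p = 0.548).

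The 8 adipocyte markers summed to 3058, 2804, 1956 and 2058 CPM in WT and 5557, 5423 and 5082 CPM in GRLKO (exact p = 0.0286, adjusted 0.267, and 0.1 without WT replicate 2). Nearly all of this was Car3, a carbonic anhydrase that hepatocytes of male mice also express, with 3047, 2795, 1951 and 2053 CPM in WT and 5533, 5414 and 5072 in GRLKO (log2 fold change 1.12 ± 0.16, adjusted p = 0.0168, without WT2 1.184, adjusted p = 0.0394). Cfd, a serine protease of fat cells, had 1.12, 0, 0 and 0 CPM in WT and 4.83, 3.10 and 2.52 in GRLKO, higher in every GRLKO liver but not called (log2 fold change 3.51 ± 1.05, adjusted p = 0.145, without WT2 3.09, adjusted p = 0.244). The lipid droplet protein Cidec had 5.78, 2.62, 1.17 and 0.843 CPM in WT and 14.3, 3.18 and 3.36 in GRLKO with overlap (log2 fold change 1.40 ± 0.74, adjusted p = 0.391, without WT2 1.40, adjusted p = 0.527). The fatty acid-binding protein Fabp4 had 4.07, 6.29, 3.74 and 3.80 CPM in WT and 4.63, 2.33 and 3.66 in GRLKO, also with overlap (log2 fold change -0.34 ± 0.29, adjusted p = 0.608, without WT2 -0.13, adjusted p = 0.877). Plin1 was at 0 in all libraries, and Adipoq, Lep and Retn had at most 5 counts in any of them. Kupffer and myeloid markers summed to 51.8, 82.9, 125 and 89.5 CPM in WT and 71.0, 107 and 79.1 CPM in GRLKO, fully overlapping, and Clec4f, their most abundant gene, had 14.9, 21.7, 34.2 and 27.6 CPM in WT and 20.6, 31.9 and 23.3 in GRLKO (log2 fold change 0.04 ± 0.27, adjusted p = 0.963, without WT2 -0.01, adjusted p = 0.991). Stellate and fibroblast markers summed to 214, 167, 226 and 188 CPM in WT and to 174, 122 and 150 CPM in GRLKO (exact p = 0.0857, adjusted 0.4, and 0.1 without WT replicate 2). Cholangiocyte markers summed to 49.8, 51.6, 54.7 and 49.5 CPM in WT and 61.1, 55.2 and 42.6 CPM in GRLKO, again overlapping.

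Lymphocyte markers summed to 14.3, 13.1, 13.8 and 9.14 CPM in WT and to 61.7, 27.1 and 13.1 CPM in GRLKO (exact p = 0.0857, adjusted 0.4, and 0.3 without WT replicate 2). The immunoglobulin heavy chain Ighm made up most of the difference, with 7.13, 7.29, 9.25 and 4.57 CPM in WT and 56.6, 20.9 and 9.69 in GRLKO (log2 fold change 2.05 ± 0.53, adjusted p = 0.103, without WT2 2.06, adjusted p = 0.211). Igkc of the same list did not rise with Ighm (log2 fold change -0.22, adjusted p = 0.869, without WT2 adjusted p = 0.883). Cd79a, Cd79b and Ms4a1 had too few counts to be tested. Summed over the livers they had 27, 31 and 10 counts in WT and 7, 19 and 2 in GRLKO. Neutrophil markers summed to at most 1.47 CPM in any library, and Ly6g, Mpo and Retnlg were at 0 everywhere. Alas2, which makes heme in erythroid cells, was the only called erythrocyte marker, with 129, 113, 126 and 135 CPM in WT and 155, 208 and 197 CPM in GRLKO (log2 fold change 0.57, adjusted p = 0.0451, and 0.12 without WT replicate 2). The hemoglobin genes did not follow it, and Hbb-bs, the most abundant, had 288, 677, 258 and 138 CPM in WT and 228, 132 and 171 in GRLKO (log2 fold change -0.94 ± 0.48, adjusted p = 0.377, without WT2 -0.36, adjusted p = 0.641).

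The effect of the genotype at ZT16 was compared with that 4 h earlier and 4 h later by an interaction test. Against ZT12 (15 libraries) edgeR called 0 of 12122 genes (0%), with 741 at an unadjusted p under 0.05, while DESeq2 called 20 and limma voom 0. Against ZT20 (14 libraries) edgeR called 0 of 12292 genes (0%), with 713 at an unadjusted p under 0.05, while DESeq2 called 16 and limma voom 0. Without WT replicate 2 at ZT16 edgeR called 0 in both, with 621 and 579 at an unadjusted p under 0.05. No gene is therefore described as particular to ZT16.

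The values at the 3 times can still be set side by side. On a scale common to all 42 libraries, Fkbp5 in WT ranged from 51.6 to 111 CPM at ZT12, from 50.2 to 53.8 CPM at ZT16 and from 15.1 to 24.5 CPM at ZT20. In GRLKO it ranged from 10.5 to 17, from 11.9 to 14.4 and from 9.38 to 12.8 CPM. WT was thus high at ZT12 and ZT16 only, and GRLKO was low throughout. The log2 fold change of Fkbp5 was -2.29 at ZT12, -2.03 at ZT16 and -0.66 at ZT20, and the difference between ZT16 and ZT20 was -1.37 ± 0.22 (SE, adjusted p = 0.216, DESeq2 adjusted p = 5.15e-05, and -1.39 with adjusted p = 0.45 without WT replicate 2). For Tsc22d3 the log2 fold change was -1.51 at ZT12, -1.23 at ZT16 and -1.01 at ZT20, and for Per1 -1.04, -1.39 and -1.26. Nr3c1 itself had -1.98, -1.82 and -1.90. Gadd45g had 2.17 at ZT16 and -3.07 at ZT12 (difference 5.24 ± 1.03 SE, adjusted p = 0.365, DESeq2 adjusted p = 0.00488, and 5.09 with adjusted p = 0.709 without WT replicate 2), opposite directions that edgeR's test did not call different.

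**Figure D4:**
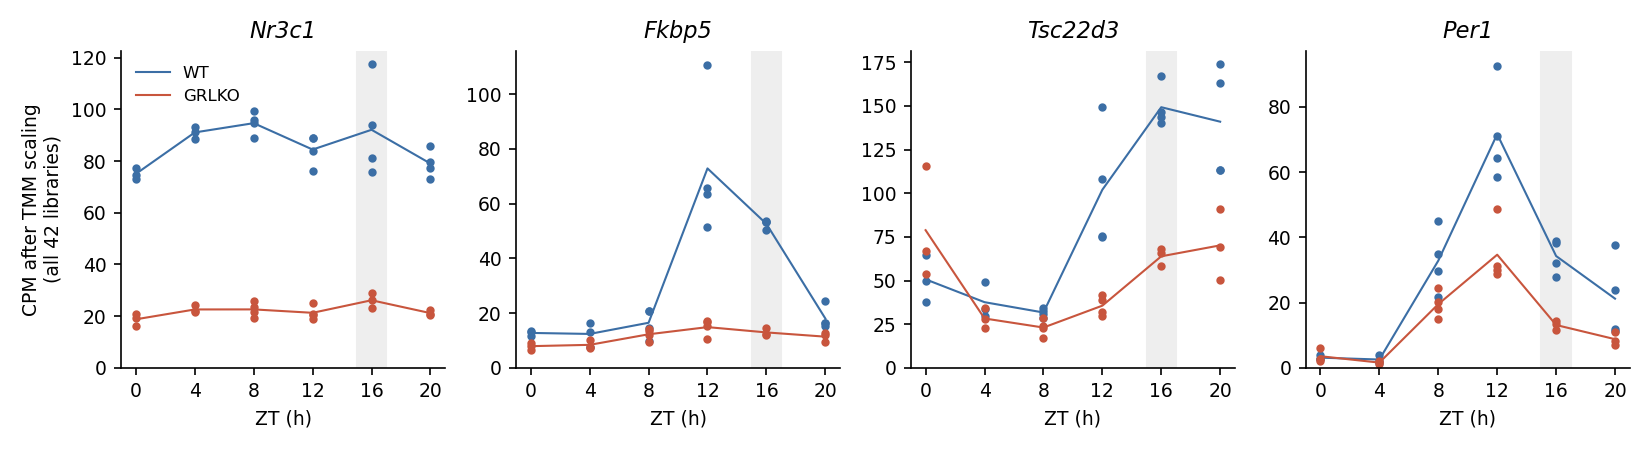
CPM after TMM scaling over all 42 control-diet libraries for Nr3c1, Fkbp5, Tsc22d3 and Per1 against ZT in h (linear axes from 0). Each point is a liver, lines join the means of WT (blue) and GRLKO (red), and the grey band marks ZT16, where all 3 GRLKO livers lie below all 4 WT livers in each gene.

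Promoter windows were also searched for the letters of the GR binding element. The core searched was ACANNNTGT, which reads the same on both strands, and a shorter element was AGAACA on either strand, in RefSeq windows from 250 bases before to 50 after each transcription start (GRCm38.p6). A window was found for 85 of the 111 genes called lower (76.6%) and 89 of the 121 called higher (73.6%), under the 80% set as the least for comparing sets, so the comparison is void and no share per set is given. Of all 32851 windows, 6.85% held the core and 19% the shorter element. These include windows of genes that were not tested. A window was found for 78.3% of the tested genes, also under 80%, so no share is given for them. Most windows of any set held no core. The core was also in windows of uncalled named genes, among them Cyp3a11, Mt1, Sgk1 and Tdo2. Whether the core goes with falling was not tested. Named genes on the chromosome of Nr3c1 were left out of the listing of windows. Below are the windows of the 3 other named falling genes that hold the core, to show the letters and their place. They are printed 5′ to 3′ in the direction of transcription with the core in capitals. Slc3a1 is at chr17:85028097-85028396 on the plus strand, Bhmt at chr13:93637709-93638008 on the minus strand and E030018B13Rik, with 2 cores, at chr7:63916607-63916906 on the plus strand. A match to these letters is a description and not a bound site.
Slc3a1: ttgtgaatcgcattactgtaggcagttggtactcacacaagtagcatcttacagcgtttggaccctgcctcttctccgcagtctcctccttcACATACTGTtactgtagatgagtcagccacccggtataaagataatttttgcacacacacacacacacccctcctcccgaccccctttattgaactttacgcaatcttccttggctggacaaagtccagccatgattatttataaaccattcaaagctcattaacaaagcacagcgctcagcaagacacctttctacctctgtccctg
Bhmt: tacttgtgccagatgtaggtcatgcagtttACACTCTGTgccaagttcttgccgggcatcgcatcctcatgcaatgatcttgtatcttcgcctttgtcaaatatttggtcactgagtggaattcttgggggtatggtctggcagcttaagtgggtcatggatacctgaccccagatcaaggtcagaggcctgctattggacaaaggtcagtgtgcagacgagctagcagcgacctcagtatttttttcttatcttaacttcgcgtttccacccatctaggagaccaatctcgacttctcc
E030018B13Rik: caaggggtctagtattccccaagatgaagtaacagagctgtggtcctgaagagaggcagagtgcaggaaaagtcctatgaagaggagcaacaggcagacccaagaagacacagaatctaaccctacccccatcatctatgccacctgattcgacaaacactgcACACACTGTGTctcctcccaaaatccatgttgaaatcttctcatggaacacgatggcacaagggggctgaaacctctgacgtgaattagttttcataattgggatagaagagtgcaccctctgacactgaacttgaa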

How the data were processed

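The input is the control-diet table of estimated counts per gene, which the authors made from the reads with Salmon 1.8.0 and tximport 1.18.0 before they deposited it. Its annotation is mm10. The descriptions of the library kit differ on whether it marks the strand, so counts of genes that overlap on opposite strands are less certain. Counts were rounded. Of 27654 gene IDs, 27244 were matched to a symbol, and the other 410 hold 0.121% of the counts. For GRLKO against WT, edgeR 4.0.16 in R 4.3.3 was fitted to the 7 libraries of ZT16, with filterByExpr at a minimum count of 10, TMM scaling, the quasi-likelihood F test and Benjamini-Hochberg adjustment over all genes tested. Genes at an adjusted p under 0.05 are called. SE is the absolute log2 fold change divided by the square root of F. DESeq2 1.42.0 and limma voom 3.58.1 are alternatives. Interactions used the 4 groups of 2 times. Library measures were compared by exact permutation.

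Named genes are Nr3c1, the 15 largest rises and the 15 largest falls among genes called with and without WT replicate 2 that reach 5 CPM in a genotype and do not overlap between genotypes, called members of the gene lists, and well-known uncalled members given for reference. The libraries, the gene lists and the markers were chosen with earlier results of these data known. Lists were described by counts and medians and not tested as sets. Counts of genes that share close copies, such as Mup18, Mup20, Cyp2a4, Cyp2b9, Gstp2, Serpina3k, Saa4, Acot3, Slc22a26, Hsd17b6, Amy2a5 and the hemoglobins, may be split among copies. Some genes that meet these rules are not reported here.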

Additional observations from a re-analysis of the deposited data

Results flagged for a closer look

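Values of single WT livers were marked when their distance to the nearest other WT liver was too large a share of the range of the 4 by Dixon's test. Of 159 measures or genes examined in WT, 17 held such a value, where chance alone gives about 1 in 20. The tally is not a fair comparison with chance, since it includes the pancreas values that were known beforehand and genes with a few counts in a single liver beside zeros. GRLKO, with 3 livers, was not examined this way.

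WT replicate 2 stood apart in the summed exocrine pancreas markers at 1039 CPM, in Amy2a5 at 336.11 CPM, in the summed endocrine pancreas markers at 0.43601 CPM and in Ins2 at 0.18686 CPM. The same liver was apart in Tagln, a smooth muscle gene, at 7.1631 CPM, in Dbp at 12.271 CPM, in Pdia4 at 190.29 CPM and in ENSMUSG00000073738 at 0.24915 CPM. It was low for Pdia4 and high for the others.

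WT replicate 3 was low in Cyp3a11 at 2963.6 CPM and Tdo2 at 906.52 CPM, and high in Gadd45g at 7.7788 CPM, Scara5 at 28.033 CPM and Spp1, a secreted phosphoprotein, at 31.482 CPM. WT replicate 1 was high in Fbp1 at 1223.8 CPM and Hsd11b1 at 528.19 CPM, and low in Slc38a2 at 50.397 CPM. WT replicate 4 was high in the interferon-stimulated gene Ifit1 at 5.9739 CPM.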

How the results depend on the processing

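The 232 calls at ZT16 became 632 with DESeq2, 469 in a fit of all 42 control-diet libraries, 192 with limma voom, 235 with RLE size factors, 225 without the filter and 231 with pancreas markers removed. Leaving out a library gave 84 (without GRLKO replicate 2) to 183 (without WT replicate 3), and moved the count by over 1.5 times for WT replicates 1, 2 and 4 and GRLKO replicates 1, 2 and 3. With 6 libraries fewer replicates enter the test, and otherwise the cause was not tested. Interaction calls against ZT12 were 0 in edgeR, 20 with DESeq2, 4 in the fit of all 42 libraries and 0 to 1 with a library left out (1 without WT replicate 1 of ZT12). Against ZT20 they were 0 in edgeR, 16 with DESeq2 and 0 to 2 with a library left out (2 without GRLKO replicate 1 of ZT20). No called named gene changed direction under any alternative, while a number of uncalled ones did, such as Tat (log2 fold change -0.10, and 0.02 without WT replicate 2). Of the leave-one-out results of named genes, called or not, 774 kept their side of the threshold, 209 lost the call and 3 gained it. DESeq2 added 10 calls, limma voom ended 12 and the fit of all 42 libraries ended 15 and added 2.

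With a replicate block (paired by the number in the titles) 32 genes were called, 11 higher and 21 lower, and 55 of the 75 called named genes lost their call. The labels do not say whether the numbers mark pairs. Correlations of libraries with the same number were 0.0575, 0.0211 and 0.103 for replicates 1, 2 and 3, and most of the others were negative. Not every library correlated best with its own number, since WT replicate 2 reached 0.0226 with GRLKO replicate 1, and GRLKO replicate 2 reached 0.1 with WT replicate 4.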
